A study of Mus musculus with 8 samples.

Results

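The mitotic kinesins are motor proteins that build and move the spindle of dividing cells, and 10 of their genes were described here in the ventricles of mouse pups. They were taken by gene symbol (Kif11, Kif15, Kif18b, Kif20a, Kif20b, Kif22, Kif23, Kif2c, Kif4 and Kifc1) from the 37982 genes of the authors' deposited table. The choice was made with earlier results of these data known. All 10 were tested by the authors in every comparison. RNA came from the hearts of C57BL/6 pups on postnatal day 7, with the atria cut away. The triple mutant group (mkmyn, 3 samples) carried altered Mkl2, Myh7 and Nkx2-5, and the double mutant group (mkmy, 3 samples) carried altered Mkl2 and Myh7 only, as known from the study. Wild type pups (wt, 2 samples) were the controls. Nkx2-5 is a homeodomain transcription factor of heart muscle, Myh7 a myosin motor of the sarcomere, and Mkl2 a coactivator that works through serum response factor. The labels give neither the alleles and their zygosity nor the sex of the pups, and nothing in them says whether the samples of a group came from separate litters. The study asks which genes differ in hearts that model congenital heart disease, and which differ when the altered Nkx2-5 is present as a modifier.

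Kinesins walk along or take apart microtubules with energy from ATP. In mitosis some push the spindle poles apart, some move or condense chromosomes, some shorten microtubule ends, and others build the central spindle on which cytokinesis depends. Their transcripts are made mainly in late S phase, G2 and mitosis and are scarce in resting cells. In the mouse heart, cardiomyocytes leave the cell cycle soon after birth, many of them after a nuclear division without cytokinesis, while endothelial cells and fibroblasts go on dividing as the heart grows.

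The values are 1 FPKM (fragments scaled to transcript length and to the size of the library) per gene and group, so no value per pup and no spread between pups can be given, and the read depth is unknown. A difference is called where the q value of the authors' Cuffdiff test is under 0.05. As a measure of error, the standard error implied by the deposited statistic (log2 fold change divided by the statistic, with the sign dropped) is given on the log2 scale. Of 3 ventricle markers, Irx4 stood at 49.997, 57.99 and 46.82 FPKM in triple mutant, double mutant and wild type and Hey2 at 24.6, 19.76 and 19.8 FPKM by the authors' deposited table, and Myl2 had too many fragments for an estimate. Of 3 atrial markers, Myl7 and Sln stayed at or under 0.19 FPKM in every group, and Myl4 stood at 9.88 FPKM in the triple mutant, 7.95 FPKM in the double mutant and 7.30 FPKM in wild type by the authors' deposited table. Of 8 cardiomyocyte markers 7 are listed at 0 because they had too many fragments for an estimate, so the muscle cells were represented by Nkx2-5 alone (55.2 FPKM in the triple mutant, 53.1 FPKM in the double mutant and 43.6 FPKM in wild type by the authors' deposited table). Nkx2-5 is itself altered in the triple mutant, so its level cannot stand for the share of muscle cells there. The groups also differed in sex-linked genes. Xist stood at 88.2 FPKM in the triple and 1.21 FPKM in the double mutant in the authors' deposited table. For the comparisons with wild type Xist had too many fragments for an estimate. The Y-linked Ddx3y stood at 10.02, 13.99 and 4.82 FPKM in triple mutant, double mutant and wild type, so sex and genotype cannot be told apart. In whole ventricle, fewer cells of a type and less RNA per cell cannot be told apart either.

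The mitotic kinesins were low to middling transcripts in every group. Summed over the 10 genes, the level was 83.3 FPKM in the triple mutant, 57.3 FPKM in the double mutant and 69.3 FPKM in wild type. The median member stood at 7.54, 5.47 and 6.33 FPKM in the same order of groups, below the median of about 10.5 FPKM over the 12405 genes tested in all 3 comparisons. Kif11 was the highest in each group and lay above 67.9%, 52.3% and 59.4% of those genes in triple mutant, double mutant and wild type. Kif15 was the lowest in both mutant groups and Kif18b the lowest in wild type. From the lowest to the highest member the level differed 7.13-fold in the triple mutant, 6.05-fold in the double mutant and 6.11-fold in wild type. Of the 10 genes, 9 stood highest in the triple mutant, lower in wild type and lowest in the double mutant. That order was held by 1609 of the 12405 genes, or 13%. With 1 value per group, neighbouring levels in this order can only be told apart by the test in the comparisons below.

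**Figure D1:**
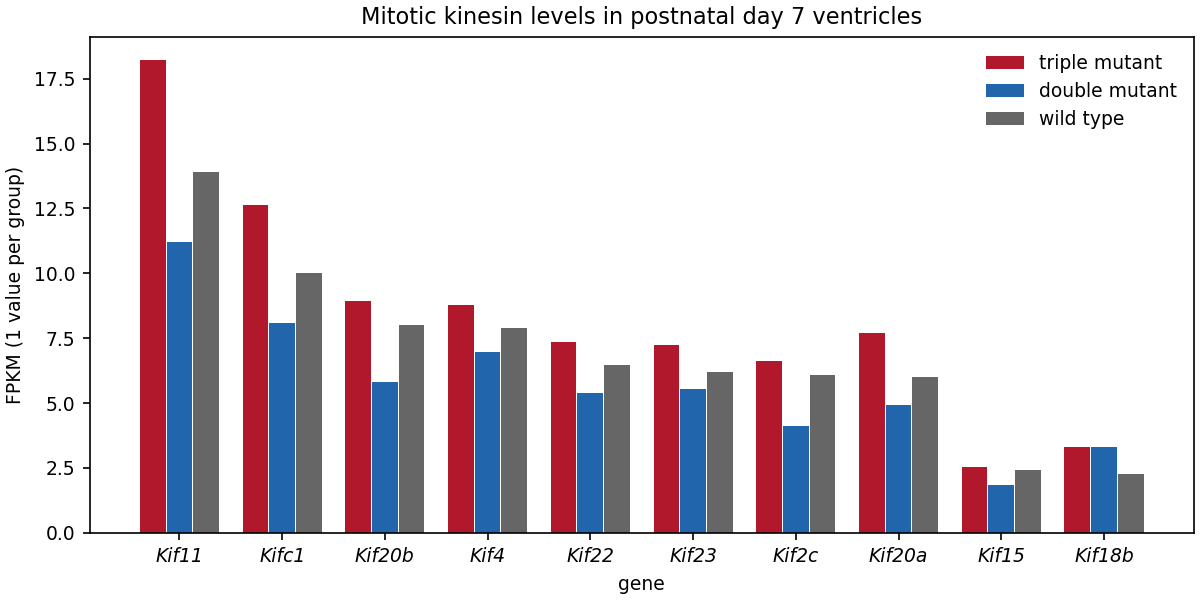
FPKM of the 10 mitotic kinesins (vertical axis), with 1 bar for the triple mutant, the double mutant and wild type from left to right and no error bar, since the table holds 1 value per group. The triple mutant bar is the highest and the double mutant bar the lowest for every gene but Kif18b.

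Triple and double mutant differ by design in the altered Nkx2-5. Kif11, which slides antiparallel microtubules apart to separate the spindle poles, rose 1.62-fold in the triple mutant, and Kif20b, a motor of cytokinesis, rose 1.53-fold. These were the 2 members called, both higher, against 0.704% of all tested genes called higher and 1.25% called in either direction. Over the 10 members the median log2 fold change was 0.54, and 9 were positive. Over all 12786 tested genes the median was -0.0011 and 49.8% were positive. An unadjusted p under 0.05 was reached by 8 of 10 members and by 8.45% of all tested genes. The members were measured in the same libraries and are not replicates of the condition. With p taken from the deposited statistic as a normal z, an alternative added after seeing the data, neither these members nor any other gene was called.

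Among the motors that set the distance between the poles, Kif11 (ENSMUSG00000012443, mm9 chromosome 19, 37450893 to 37496349) stood at 18.2 FPKM in the triple and 11.2 FPKM in the double mutant in the authors' deposited table. Its log2 fold change there was 0.70 (implied standard error 0.24, q = 0.0066 by Cuffdiff). The difference was 2.96 times its implied error, the largest such ratio among the members. Kif15, a plus-end motor that can stand in for Kif11 in holding the poles apart, stood at 2.56 FPKM in the triple and 1.85 FPKM in the double mutant in the authors' deposited table (log2 fold change 0.46, implied standard error 0.31, q = 0.191). Kifc1 walks towards the minus ends, focuses the poles and works against Kif11. It stood at 12.6 FPKM in the triple and 8.09 FPKM in the double mutant in the authors' deposited table (log2 fold change 0.64, implied standard error 0.39, q = 0.0794). That q passes the threshold of 0.1 used for the authors' own mark of significance, by which 3 members and 1.02% of all tested genes were higher. The motor that pushes the poles apart and the motor that draws them together thus had estimates of the same sign.

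Kif22 and Kif4 are chromokinesins, which bind chromosome arms. Kif4 also sets the length of the central spindle together with its partner Prc1. Kif22 stood at 7.37 FPKM in the triple and 5.40 FPKM in the double mutant in the authors' deposited table (log2 fold change 0.45, q = 0.245). For Kif4 the levels in the authors' deposited table were 8.77 FPKM in the triple and 6.97 FPKM in the double mutant (log2 fold change 0.33, q = 0.773). Neither passed. The locus of Kif4 is listed for Pdzd11 as well, so the counting could have split or joined their reads.

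The depolymerases Kif2c and Kif18b shorten microtubule ends, Kif2c at centromeres and kinetochores and Kif18b, with its partner Mapre1 (end-binding protein), on the astral microtubules. Kif2c stood at 6.63 FPKM in the triple and 4.12 FPKM in the double mutant in the authors' deposited table. Its log2 fold change of 0.69 is nearly that of Kif11, but with an implied standard error of 0.59 its q in the authors' deposited table was 0.248. Kif18b stood at 3.32 FPKM in the triple and 3.32 FPKM in the double mutant in the authors' deposited table (q = 0.999). It was the member with no difference in the estimate, yet its implied standard error of 1.18 was also the highest, so a change of the size seen in the other members was not detectable for it. The Kif18b locus (mm9 chromosome 11, 102699787 to 102962972) spans 263186 bases and is listed for 10 other genes, so this level is the least certain of the 10.

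The remaining 3 act late, at the central spindle and midbody. Kif20b (ENSMUSG00000024795, mm9 chromosome 19, 34996848 to 35050221) stood at 8.94 FPKM in the triple and 5.83 FPKM in the double mutant in the authors' deposited table. Its log2 fold change there was 0.62 (implied standard error 0.24, q = 0.0066). That locus is listed also for the microRNA gene Mir1950. Kif20a carries the chromosomal passenger complex to the central spindle. Its levels in the authors' deposited table were 7.70 FPKM in the triple and 4.93 FPKM in the double mutant (log2 fold change 0.64, implied standard error 0.57, q = 0.389), in a locus listed also for Cdc23. Kif23 forms centralspindlin with Racgap1 and stood at 7.22 FPKM in the triple and 5.54 FPKM in the double mutant in the authors' deposited table (log2 fold change 0.38, implied standard error 0.30, q = 0.313). Of these 3 cytokinesis motors, Kif20b was the member called, and its difference from the other members' changes was not tested.

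Among the 9 positive members the estimates lay between 1.26-fold (Kif4) and 1.62-fold (Kif11). The 2 called genes had the smallest implied errors of the 10, and 3 members with log2 fold changes of 0.64 to 0.69 (Kif2c, Kif20a and Kifc1) were not called. The 6 members with a locus of their own had a median log2 fold change of 0.55, and their median implied standard error was 0.31, against 0.40 over all tested genes.

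**Figure D2:**
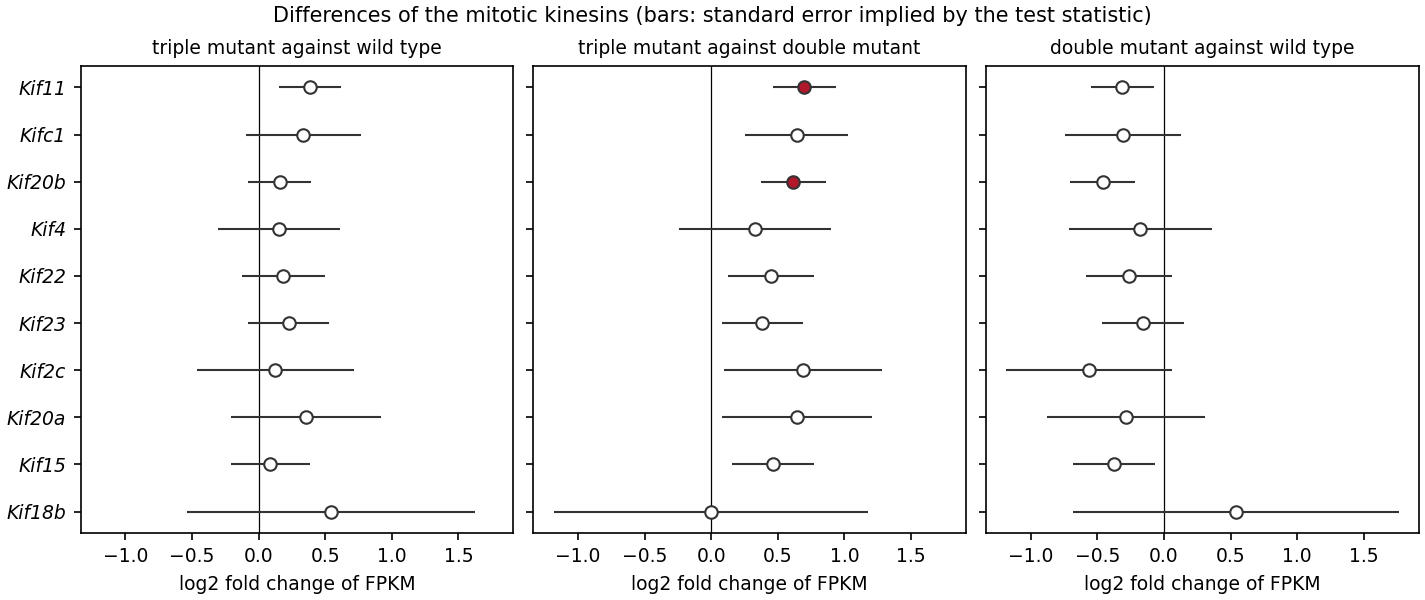
Log2 fold change of FPKM for each mitotic kinesin in the 3 comparisons (points), with bars of 1 standard error implied by the authors' statistic and red points for a q value under 0.05. Kif11 and Kif20b in the middle panel are the red points, and Kif18b has the widest bar in each panel.

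Set against wild type, the triple mutant had smaller estimated differences in 9 of 10 members than against the double mutant, and no member was called. All 10 members had a positive log2 fold change, with a median of 0.21 and a range of 0.09 (Kif15) to 0.54 (Kif18b). Of all tested genes 1.52% were called in either direction, 1.16% were called higher (1.97% at a q under 0.1) and 49.6% had a positive log2 fold change. With none called by Cuffdiff, 1 of 10 members had an unadjusted p under 0.05, against 12.1% of all tested genes. That member was Kif11, at 18.2 FPKM in the triple mutant and 13.9 FPKM in wild type in the authors' deposited table (log2 fold change 0.39, implied standard error 0.23, p = 0.00395, q = 0.116). Kifc1 stood at 12.6 FPKM in the triple mutant and 10.004 FPKM in wild type in the authors' deposited table (log2 fold change 0.33, q = 0.650). For the central spindle motor Kif20a, the levels in the authors' deposited table were 7.70 FPKM in the triple mutant and 6.01 FPKM in wild type (log2 fold change 0.36, q = 0.768). The other 7 members had q values of 0.695 to 0.948.

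Double mutant ventricles had lower estimates than wild type in 9 of 10 members, and none was called. The median log2 fold change was -0.30, and of all tested genes 2.65% were called in either direction and 0.767% lower (1.43% at a q under 0.1). Again with none called by Cuffdiff, 3 of 10 members had an unadjusted p under 0.05, against 16.3% of all tested genes. Kif20b came nearest, at 5.83 FPKM in the double mutant and 8.01 FPKM in wild type in the authors' deposited table (log2 fold change -0.46, implied standard error 0.24, q = 0.0511). Adjusted within this comparison alone, its q was 0.0350, which would make it a call. Kif11 stood at 11.2 FPKM in the double mutant and 13.9 FPKM in wild type in the authors' deposited table (log2 fold change -0.31, q = 0.261), and Kif15 at 1.85 FPKM in the double mutant and 2.41 FPKM in wild type (log2 fold change -0.38, q = 0.344). Kif2c had the largest estimated decrease, with 4.12 FPKM in the double mutant and 6.08 FPKM in wild type in the authors' deposited table (log2 fold change -0.56, implied standard error 0.63, q = 0.445). The member with a positive value was Kif18b, at 3.32 FPKM in the double mutant and 2.28 FPKM in wild type in the authors' deposited table (q = 0.820). The 3 comparisons share their groups pairwise, so a double mutant value that lies low enters 2 of them, and the signs in the comparisons are not separate evidence.

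Kinesins outside the 10 members were read from lists drawn up with earlier results of these data known. Of 6 further kinesins with a role in mitosis 4 were tested, and 2 were called higher in the triple than in the double mutant. In that comparison 0.704% of all tested genes were called higher. Cenpe, the kinetochore motor that carries chromosomes to the spindle equator, rose to 5.58 FPKM in the triple mutant, against 3.63 FPKM in the double mutant, in the authors' deposited table (1.54-fold, q = 0.0066). Kif14, a motor of cytokinesis, rose to 3.05 FPKM in the triple mutant, against 2.02 FPKM in the double mutant, in the authors' deposited table (1.51-fold, q = 0.0184), and was called lower in the double mutant than in wild type as well (2.95 FPKM in wild type, q = 0.0440). Of all tested genes 0.767% were called lower in the double mutant than in wild type. Kif2b is listed at 0 in every group, and Stard9 stayed under 1 FPKM and was not tested. Of 26 kinesins of transport and other tasks 16 were tested, and their median log2 fold change for triple against double mutant was -0.07. None of these was called there (Cuffdiff, 3 of 16 with an unadjusted p under 0.05), as against 1.25% of all tested genes called, and their difference from the mitotic kinesins was not tested. The abundant cargo motors Kif5b and Kif1b had log2 fold changes of 0.14 and 0.03 there in the authors' deposited table. Kif26a, which lacks motor activity, fell in the triple mutant against wild type (11.6 FPKM in the triple mutant and 15.9 FPKM in wild type in the authors' deposited table, q = 0.0398). Kifc2 rose in the double mutant against wild type (1.95 FPKM in the double mutant and 0.886 FPKM in wild type in the authors' deposited table, q = 0.0214). Each was the 1 call of this list in its comparison, with 15 and 16 tested. Of all tested genes, 47 of 12986 were called lower in the triple mutant against wild type. In the double mutant against wild type 246 of 13034 were called higher.

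Partners and regulators of the mitotic kinesins stood higher in the triple than in the double mutant in 18 of 20 genes, with 5 calls and a median of 0.48 for the log2 fold change. Of all tested genes 49.8% were positive in that comparison, and 0.704% were called higher. Hmmr, a spindle protein that acts with Tpx2, rose 1.82-fold (q = 0.0066), Gtse1, an inhibitor of Kif2c, 1.91-fold (q = 0.0114) and the mitotic kinase Plk1 1.62-fold (q = 0.0066), all by the authors' deposited table. The cytokinesis genes Anln (1.60-fold, q = 0.0066) and Cep55 (15.1 FPKM in the triple and 10.1 FPKM in the double mutant, q = 0.0114, with a shared locus) were the other calls in the authors' deposited table. Prc1, the partner of Kif4, had a log2 fold change of 0.65 in the authors' deposited table (q = 0.256), and Racgap1, the partner of Kif23, had 0.39 (q = 0.425). Mapre1, the partner of Kif18b, had 0.13 (q = 0.956) and Tpx2, which binds Kif11 and recruits Kif15, had 0.51 (q = 0.201) in the same table. In the triple mutant against wild type Hmmr was the call of this list (28.7 FPKM in the triple mutant and 17.9 FPKM in wild type in the authors' deposited table, q = 0.0066). Incenp, the scaffold of the chromosomal passenger complex, fell in the double mutant against wild type (2.75 FPKM in the double mutant and 5.07 FPKM in wild type in the authors' deposited table, q = 0.0066). Ect2, the cytokinesis exchange factor that binds centralspindlin, fell there too (3.95 FPKM in the double mutant and 8.03 FPKM in wild type in the authors' deposited table, q = 0.0356, with a shared locus). Against wild type, 1.16% of all tested genes were called higher in the triple mutant and 0.767% were called lower in the double mutant.

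In the triple against the double mutant, all 19 tested mitotic genes had positive values (median log2 fold change 0.56), and 4 were called higher. These were Ccnb1, Cdca3, Cenpf and Ube2c, at q values of 0.0066 to 0.0114 in the authors' deposited table. All 14 tested DNA replication genes were positive there too (median 0.48), with Cdc6, Rrm2, Prim1 and Tyms as the 4 calls. Of all tested genes 49.8% were positive in that comparison, 0.704% were called higher and 8.45% had an unadjusted Cuffdiff p under 0.05. Against wild type, the triple mutant was called higher in 3 of 19 mitotic genes (Cdca3, Nuf2 and Nusap1) and none of 14 replication genes (Cuffdiff, 2 with an unadjusted p under 0.05). There 1.16% of all tested genes were called higher, and 12.1% had an unadjusted Cuffdiff p under 0.05. The double mutant was called lower than wild type in none of 20 mitotic genes (Cuffdiff, 7 with an unadjusted p under 0.05) and in 3 of 13 replication genes (Cdc6, Rrm2 and Tyms). Here 0.767% of all tested genes were called lower, and 16.3% had an unadjusted Cuffdiff p under 0.05. Regulators of G2/M transcription gave no call in any comparison (Cuffdiff, 19 tested, 2, 5 and 1 with an unadjusted p under 0.05 for triple mutant against wild type, triple against double mutant and double mutant against wild type). In the same order of comparisons, 1.52%, 1.25% and 2.65% of all tested genes were called in either direction. Rbbp4 and Nfyc, the most abundant of these regulators, had log2 fold changes of 0.17 and 0.26 for triple against double mutant in the authors' deposited table. The proliferation factors Mybl2 and Foxm1, named after their values were seen, had 1.15 (q = 0.0629) and 0.55 (q = 0.140) in the same table. The loci of Prc1, Racgap1, Tpx2, Ube2c, Tyms, Nusap1 and Foxm1 are each listed for other genes too.

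**Figure D3:**
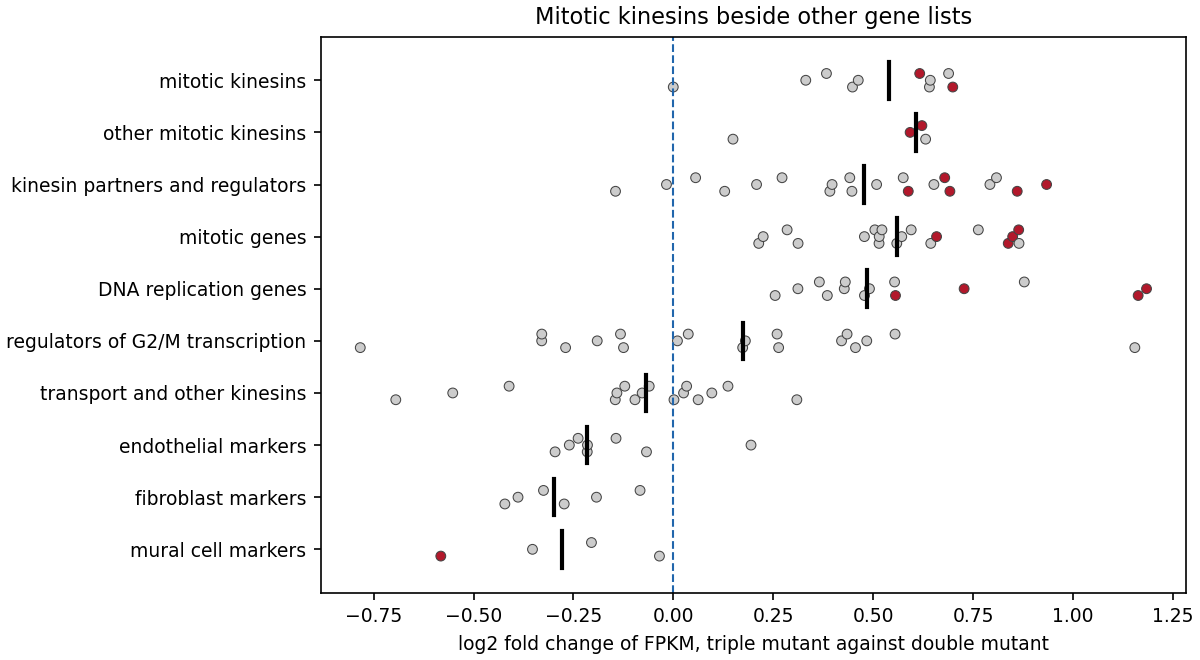
Log2 fold change of FPKM for triple mutant against double mutant (horizontal axis), with 1 point per tested gene of each list, red for a q value under 0.05 and grey otherwise, a black bar at the list's median and a dashed line at the median of all tested genes. The mitotic kinesins, with a median of 0.54, overlap in range with each of the other division gene lists, and the transport kinesins have a median of -0.07.

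Markers of the stromal and vascular cells of the heart had estimates of the opposite sign in the triple against the double mutant. Over all tested genes, 49.8% were positive in that comparison and 1.25% were called in either direction. No fibroblast or endothelial marker was called there. An unadjusted Cuffdiff p under 0.05 was reached by 4 of 6 fibroblast, 0 of 8 endothelial and 2 of 4 mural cell markers. The share over all tested genes was 8.45%. All 6 tested fibroblast markers had negative values (median log2 fold change -0.30, summed level 513 FPKM in the triple and 631 FPKM in the double mutant), while Col3a1 and Postn had no estimate there. For endothelial markers 7 of 8 were negative (median -0.22, summed level 555 FPKM in the triple and 624 FPKM in the double mutant), and for mural cell markers 4 of 4 (median -0.28, summed level 271 FPKM in the triple and 342 FPKM in the double mutant), of which Kcnj8 was called lower (q = 0.0114 in the authors' deposited table). Summed levels of 544, 652 and 301 FPKM were held by fibroblast, endothelial and mural markers in wild type. Of the erythroid markers, the globin genes were abundant, with Hbb-b1 at 212 FPKM in the triple mutant, 215 FPKM in the double mutant and 171 FPKM in wild type and Hba-a1 at 119, 134 and 139 FPKM in the same groups by the authors' deposited table. Alas2, of haem synthesis, stood at 16.5, 16.1 and 23.1 FPKM there. Klf1 and Epb4.2 stayed under 1 FPKM in every group, with Klf1 listed at 0 in the double mutant, and the 3 tested had a median of -0.02 (summed level 348 FPKM in the triple mutant, 365 FPKM in the double mutant and 333 FPKM in wild type). Of the 6 leukocyte markers, Ptprc and Emr1 stayed under 1 FPKM and Itgam at or under 1.365 FPKM in every group, while Csf1r, Cd68 and Cx3cr1 lay between 2.64 and 4.25 FPKM, with a median log2 fold change of -0.14 for triple against double mutant over the 3 tested (summed level 10.2, 10.7 and 9.27 FPKM in triple mutant, double mutant and wild type). What part these cell types had in the kinesin levels was not tested.

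Many genes of mitosis carry a cell cycle homology element near their transcript start, where the MuvB core complex binds, often beside CCAAT boxes, which bind NF-Y. Because 9 of the 10 members shared 1 order of the groups, their promoters were searched for both motifs. RefSeq windows of 300 bases (250 before to 50 after a start, GRCm38.p6) were found for 9 members, all but Kif20a. The letters TTTGAA on either strand stood in all 9, against 5878 of 32851 promoter windows in all, or 17.9%. The variant TTCGAA stood in none of the 9 and in 1.56% of all windows. CCAAT on either strand stood in 6 of 9 (66.7%), against 37.4% of all windows. It stood in 81.2% of windows of DNA replication genes, 72.2% of mitotic genes and 65.2% of kinesin partners and regulators. For the other mitotic kinesins, the G2/M regulators and the transport and other kinesins its shares were 57.1%, 54.5% and 36.4%. Neither motif was particular to the members. TTTGAA stood in 12 of 18 windows of mitotic genes (66.7%) and in 12 of 23 windows of kinesin partners and regulators (52.2%). It stood in 8 of 22 windows of G2/M regulators (36.4%), in 2 of 16 of DNA replication genes (12.5%), in 3 of 22 of transport and other kinesins (13.6%) and in 1 of 7 of the other mitotic kinesins (14.3%). The motifs do not overlap with each other.

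For 8 members the RefSeq start lay within 50 bases of the annotated 5′ end of the gene, and a TTTGAA match lay close to it. Those starts are given from position -60 to position 25, where 1 is the first transcribed base. This stretch was chosen after the matches were seen, so shares for it are given for scale only. Of all windows 4.43% hold TTTGAA there, and 0.651% hold both motifs. TTTGAA stood there in 44.4% of windows of mitotic genes and 30.4% of kinesin partners and regulators, and both motifs in 33.3% and 21.7%. For G2/M regulators, transport and other kinesins, DNA replication genes and the other mitotic kinesins the TTTGAA shares were 13.6%, 9.09%, 6.25% and 0%. Both motifs stood in at most 6.25% of windows in each of those lists. Capitals mark TTTGAA as well as CCAAT and their reverse complements, and the sequences run 5′ to 3′ on the gene's strand. Their positions in GRCm38.p6 are Kif11 chr19:37376322-37376406 on the plus strand, Kif15 chr9:122951021-122951105 on the plus strand, Kifc1 chr17:33890609-33890693 on the minus strand, Kif22 chr7:127042396-127042480 on the minus strand, Kif4 chrX:100626005-100626089 on the plus strand, Kif18b chr11:102925100-102925184 on the minus strand, Kif20b chr19:34922298-34922382 on the plus strand and Kif23 chr9:61946775-61946859 on the minus strand.
Kif11: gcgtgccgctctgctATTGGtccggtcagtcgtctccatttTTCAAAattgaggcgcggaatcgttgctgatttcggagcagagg
Kif15: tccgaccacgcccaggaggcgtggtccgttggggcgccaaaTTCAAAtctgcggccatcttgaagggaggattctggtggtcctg
Kifc1: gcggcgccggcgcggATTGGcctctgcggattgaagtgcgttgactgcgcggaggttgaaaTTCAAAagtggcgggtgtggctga
Kif22: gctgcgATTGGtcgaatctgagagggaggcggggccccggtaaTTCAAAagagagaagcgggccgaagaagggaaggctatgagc
Kif4: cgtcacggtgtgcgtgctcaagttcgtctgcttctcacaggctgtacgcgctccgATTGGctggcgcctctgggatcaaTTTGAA
Kif18b: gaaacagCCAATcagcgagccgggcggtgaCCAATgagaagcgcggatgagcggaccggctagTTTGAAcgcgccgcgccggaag
Kif20b: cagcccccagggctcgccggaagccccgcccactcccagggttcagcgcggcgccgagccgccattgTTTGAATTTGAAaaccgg
Kif23: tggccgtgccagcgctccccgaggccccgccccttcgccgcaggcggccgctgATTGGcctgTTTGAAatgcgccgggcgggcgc
The match of Kif11 lay at -19 to -14 and that of Kif15 at the same place, while Kif20b held 2 matches end to end, at 8 to 13 and 14 to 19. Of the 8, all but Kif15 and Kif20b also held a CCAAT box in this stretch. Kif18b, whose level did not follow the order of the others, held a TTTGAA match at 4 to 9 and 2 CCAAT boxes. For Kif2c the transcript start of the window lay 3852 bases from the annotated 5′ end of the gene. That window is counted among the 9 but is not shown. A match describes letters and not binding, and the expression values carry no measurement of any factor at these sites.

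**Figure D4:**
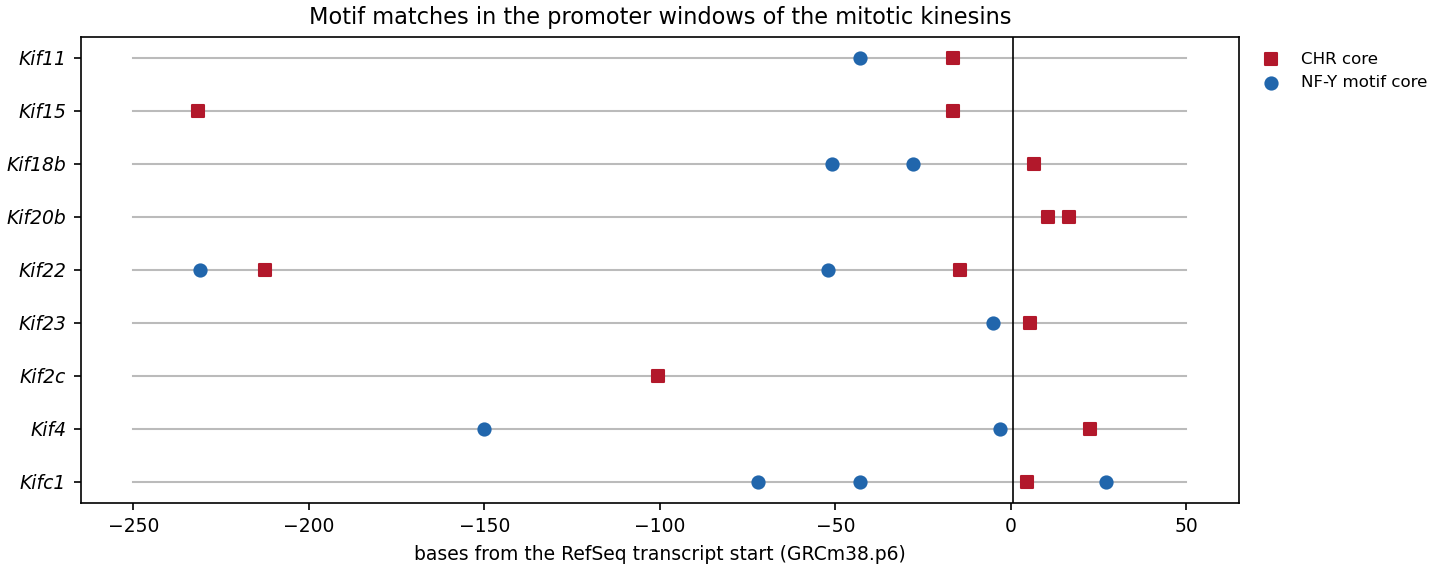
Positions of TTTGAA matches (squares, core of the cell cycle homology element, CHR) and CCAAT matches (circles, core of the NF-Y motif) on either strand in the 300-base promoter windows of 9 mitotic kinesins, with bases from the RefSeq transcript start on the horizontal axis. A square lies within 25 bases of the start for 8 of the 9 genes, and for Kif2c it lies at -103 to -98.

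Genes whose group levels were most like the members' median pattern were taken from 8530 other genes at 5 FPKM or more in every group, by distance over the log2 ratios of triple mutant and double mutant to wild type. The nearest were the linker histone gene Hist1h1e, the replicative helicase gene Mcm3, the galactose enzyme gene Galt, Spsb4 and Sec61a2, at distances of 0.00636 to 0.0165 from the members' medians of 0.21 and -0.30. Of these, Hist1h1e was called in triple against double mutant (820.5 FPKM in the triple and 579 FPKM in the double mutant in the authors' deposited table, q = 0.0380). With 3 groups the likeness rests on 2 ratios, and 64 of the 8530 genes lay within 0.1.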

How the data were processed

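Ventricle RNA of 8 samples was measured, and groups were taken from the labels (3 triple mutant, 3 double mutant, 2 wild type). Libraries were stranded and made from total RNA, per the labels' protocols. The submitters' processing notes name Cuffdiff 2.2.1, Cufflinks 2.2.1, STAR 2.5.2 and CASAVA 1.8, with mm9 as the build. Which annotation and normalization were set is not given. The authors deposited 1 FPKM per gene and group, and for each of 3 comparisons a log2 fold change, a test statistic (a score), a p-value and a q-value. Total depth is not kept by FPKM, so no depth or precision per sample can be given. The p-values rest only on the libraries the authors entered, which the labels do not say were separate litters.

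The deposited log2 fold change is the plain log2 ratio of both FPKM values, to within 4.72e-05. Adjusting the p-values of all 3 comparisons jointly by Benjamini-Hochberg gave back the deposited q-values, which were the main test, as no sample values allowed a new fit. The lowest p-value is 5e-05 and the lowest q-value 0.0066, so the strongest calls tie there. Genes flagged for too many fragments (709 genes, 2036 rows) are listed at 0 and were treated as missing. Coordinates are those of the file with 1 added to the start. A locus listed with the same coordinates for other genes is called shared. The members and gene lists were chosen with earlier results of these data known. All members are named, and from each other list the called genes or otherwise the 2 most abundant, with direct partners of members, sex-linked genes, cell markers, Mybl2 and Foxm1 in addition. Alternatives were other q adjustments, thresholds, FPKM minimums of 1 and 5, pseudocounts of 0.1 and 1, and centring. The adjustment was tested on simulated data whose p-values were normal tails of a simulated statistic. Nearly all deposited p-values were lower than such a tail, so the simulation checked the adjustment step and not the deposited p-values. Promoter windows came from RefSeq (GRCm38.p6), and the last 20 bases of each of the 9 were found in a GENCODE M21 transcript of the same gene. Python 3.11.15, pandas 2.3.3 and scipy 1.17.1 were used.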

Additional observations from a re-analysis of the deposited data

How the results depend on the processing

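The count of 2 members called in triple against double mutant (Kif11 and Kif20b) was kept, with the same genes, when q values were adjusted within the comparison, over genes at 1 or 5 FPKM or more, and at a threshold of 0.01, and it was 3 with Kifc1 at a threshold of 0.1. For double mutant against wild type the count of 0 became 1 (Kif20b) under each of 4 alternatives: adjustment within the comparison, the same over genes at 1 FPKM or more or at 5 FPKM or more, and a threshold of 0.1. For triple mutant against wild type it was 0 under every alternative run. In an alternative chosen after seeing the data, a p value was taken from the deposited statistic as a normal z. It called 0 members in each comparison, including triple against double mutant, and 0 of all genes, because 99.2% to 99.7% of deposited p values were lower than this normal one. Why they are lower was not tested. The median log2 fold change of the members kept its sign under every pseudocount, centring and subset run. It lay between 0.46 and 0.63 for triple against double mutant, between 0.18 and 0.21 for triple mutant against wild type, and between -0.31 and -0.25 for double mutant against wild type. Centring on the median of all genes turned the sign of Kif18b in triple against double mutant, from a value near 0 to 0.000825, by the shift that centring adds. No paired analysis was possible because the table holds 1 value per group and none per sample. For the same reason, leaving out replicates was not run, and a prefix in the sample descriptions that takes 2 values in every group could not be used as a term.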
